A study of Homo sapiens with 6 samples.

Results

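The immediate-early genes examined here were the EGR zinc-finger factors (EGR1, EGR2, EGR3), the NR4A orphan nuclear receptors (NR4A1, NR4A2, NR4A3), the IER genes (IER2, IER3, IER5) and SRF. They were chosen by gene symbol, and all 10 were among the 26255 genes listed in every sample. RNA-seq was performed on 22RV1 cells in medium with 10% serum, treated for 24 h with vehicle (DMSO, 3 samples) or with 10 nM bruceantin (BCT, 3 samples). 22RV1 is a single human CRPC cell line, and BCT is a plant quassinoid. The comparison asks how 24 h of BCT changed the transcript levels of these genes. Values are FPKM, which divide the fragments of a gene by its length and by the sequencing depth, so that levels can be compared between genes. The labels do not say whether the 3 samples of a group were separate cultures, so the p-values measure only the spread between these samples. In bulk RNA, a change in the share of cells that express a gene and a change in RNA per cell cannot be told apart.

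Immediate-early genes are transcribed within minutes of a growth factor, serum or stress signal, without the need for newly made proteins, and many of their mRNAs are short-lived. MAP kinase signaling reaches them in large part through SRF, a MADS-box factor that binds the CArG box together with ternary complex factors such as ELK1, and through CREB-family factors that bind the CRE. The EGR proteins bind GC-rich sites with 3 zinc fingers and are held back by the corepressors NAB1 and NAB2, and the NR4A receptors act without a known natural ligand, as monomers, dimers or partners of RXR. In prostate cancer cells, EGR1 is known as a factor that is often highly expressed.

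To show what lies next to the start sites of these genes, promoter windows were taken from RefSeq (GRCh38.p14), each with 250 bases before and 50 bases after an annotated start. Windows were searched for 7 of the 10 genes, 11 windows in all, and none was searched for EGR3, NR4A2 or IER3. This does not show that RefSeq lacks a start for these 3 genes. The CArG box was matched in 1.29% of the 35116 windows in the table, and 2 or more boxes in 0.0313%. The CRE core TGACG, which also lies inside the full CRE, was matched in 24.6% of windows, with 6 motifs searched on both strands. The 150 bases before the start are printed for the genes with a CArG box and for NR4A3, the gene with the most CRE cores, because the genes with a CArG box include EGR1 and EGR2, which rose with BCT, and SRF, which did not pass the test. Capitals mark CArG boxes and CRE cores, with CGTCA being the core on the other strand. The windows lie at chr5:138465329-138465478 (plus strand) for EGR1, chr10:62816367-62816516 (minus strand, the third of 3 annotated starts) for EGR2, chr6:43171119-43171268 (plus strand, the first of 2 starts) for SRF and chr9:99821735-99821884 (plus strand) for NR4A3.
EGR1: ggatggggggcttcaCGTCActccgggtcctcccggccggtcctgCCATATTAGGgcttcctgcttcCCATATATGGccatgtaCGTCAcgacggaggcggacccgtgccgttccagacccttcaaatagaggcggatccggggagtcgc
EGR2: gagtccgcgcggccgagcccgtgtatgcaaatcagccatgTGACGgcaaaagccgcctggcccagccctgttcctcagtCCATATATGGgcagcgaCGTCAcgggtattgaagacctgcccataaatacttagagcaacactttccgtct
SRF: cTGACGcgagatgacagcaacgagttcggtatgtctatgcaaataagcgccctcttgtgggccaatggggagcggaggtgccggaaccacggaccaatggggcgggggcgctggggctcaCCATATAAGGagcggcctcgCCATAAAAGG
NR4A3: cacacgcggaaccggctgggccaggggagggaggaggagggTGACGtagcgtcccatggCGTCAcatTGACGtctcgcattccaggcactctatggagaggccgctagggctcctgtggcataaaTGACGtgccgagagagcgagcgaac

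EGR1 held 2 CArG boxes and 2 CRE cores, SRF held 2 CArG boxes and 1 core, and the third EGR2 window held 1 CArG box and 2 cores. NR4A3 held 4 cores and no CArG box. IER2 held 1 core. Neither NR4A1 window and not the IER5 window held a CArG box or a core. The canonical NR4A1 transcript in GENCODE spans 8062 bases, while the NR4A1 row runs from 52416616 to 52453291 (hg19). Whether the start of that transcript lies in either NR4A1 window was not checked. Starts outside the windows were not searched, so these results do not describe every promoter of a gene. The full CRE TGACGTCA, the EGR site GCGTGGGCG and the NR4A site AAAGGTCA were matched in none of the 11 windows, against 1.85%, 0.795% and 1.22% of all windows. The ETS core CCGGAA was matched once each in IER5, IER2, SRF and NR4A1, and in 17.2% of all windows. A match describes the letters in these windows and is not evidence of binding.

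Before the results, some facts of the whole series bear on the values. The FPKM sum of a sample ranged from 1169649 to 1572321 with DMSO and from 757534 to 799838 with BCT, and the row MIR6087 took 43.5% to 55.3% of the sum with DMSO and 31.7% to 32.5% with BCT. Values were used as deposited. No read counts are given. The low values put the depth of the samples, relative to DMSO replicate 1, at 0.877 to 1 with DMSO and 1.05 to 1.13 with BCT. All 9 prostate epithelial markers passed the filter on low values, of which KRT8 and KRT18 were called higher and KLK2, KLK3 and TMPRSS2 lower. Of the other markers only COL1A1 (of 7 stromal) and CD68 (of 6 leukocyte) passed it, and the 4 endothelial markers summed to at most 0.081 FPKM in any sample. The stromal sum was 2.66 to 2.83 FPKM with DMSO and 5.91 to 7.21 FPKM with BCT, and the leukocyte sum 2.94 to 3.83 and 5.97 to 9.10 FPKM, and their part in the results was not tested. Among the BCT samples, replicate 1 was closest to DMSO, with a correlation across genes of 0.892 to 0.896 with the DMSO samples, against 0.851 to 0.857 for replicates 2 and 3.

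Of the 10 genes, 7 were called higher with BCT and 0 lower (limma, also 0 lower at an unadjusted p under 0.05), where 13.9% of the 12729 tested genes were called higher and 17.8% lower. These shares are 1764 and 2263 genes as deposited, 5614 and 668 after rescaling to equal FPKM sums, and 3370 and 1208 when MIR6087 is left out of the sums. The genes called higher were all 3 EGR genes, all 3 NR4A genes and IER2. IER3 was higher too, at a log2 fold change of 0.78 (limma adjusted p = 0.00023), but under the threshold for a call. A gene was called at an absolute log2 fold change above 0.85 on log2(FPKM + 0.1) and an FDR below 0.05, with limma and Benjamini-Hochberg adjustment over all genes that averaged 1 FPKM or more across the samples. EGR2, EGR3, NR4A2 and NR4A3 averaged under 1 FPKM with DMSO and passed this filter through their BCT samples alone, so that they had to differ to be tested. Without the filter the same count of 7 was called. In 8 of the 10 genes every BCT sample lay above every DMSO sample, which was so in 41.0% of all tested genes. The groups overlapped in IER5 and SRF.

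**Figure D1:**
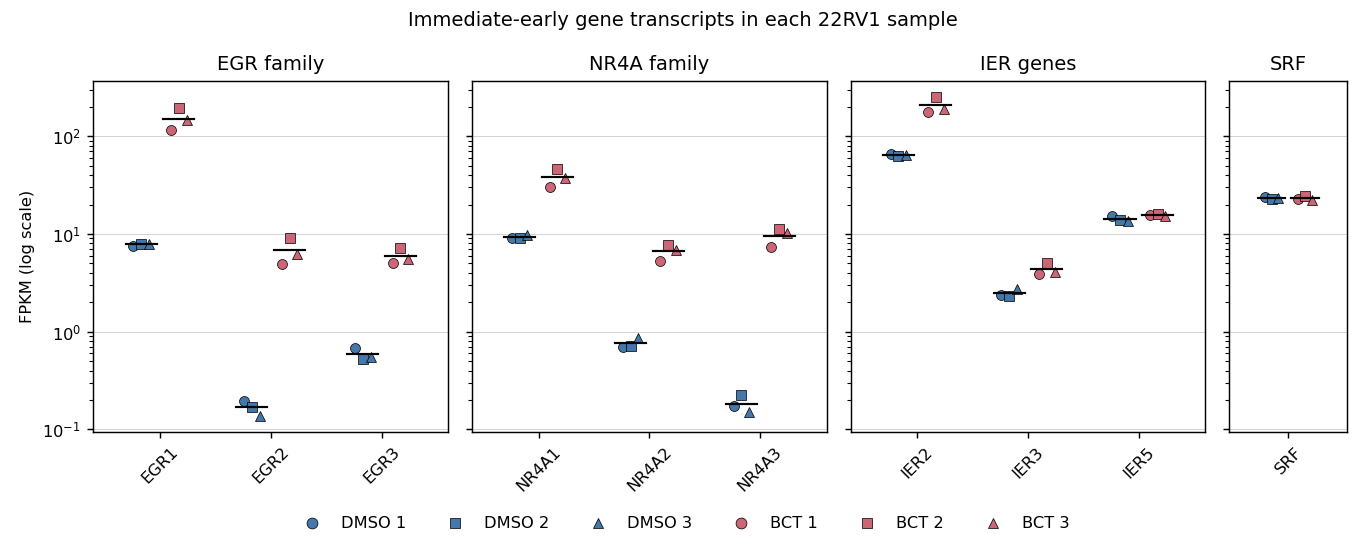
FPKM (log axis) of the 10 genes in each of the 3 DMSO (blue) and 3 BCT (red) samples, with symbols for replicates 1 to 3 and a bar at each group mean. The BCT samples lie above the DMSO samples in 8 genes, from IER3 (1.75-fold) to NR4A3 (52.6-fold), and overlap them in IER5 and SRF.

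EGR1, a factor induced by mitogens and stress, had the highest level of the EGR family. The DMSO samples gave 7.59, 7.99 and 7.94 FPKM, and the BCT samples 116, 195 and 146 FPKM. Each BCT sample was thus more than an order of magnitude above each DMSO sample. EGR1 lies on chromosome 5 from 137801181 to 137805004 (hg19, plus strand). Its mean rose 19.4-fold, from 7.84 ± 0.218 to 152 ± 40.0 FPKM (SD, n = 3 each). The log2 difference was 4.23 (standard error 0.16, limma adjusted p = 4.1e-07). This moved EGR1 from percentile 38.4 to percentile 96.2 of the tested genes ranked by their mean level.

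EGR2, which is best known for its role in peripheral myelination, was barely detected with DMSO, at 0.196, 0.171 and 0.137 FPKM. With BCT it was at 4.94, 9.15 and 6.28 FPKM. It lies on chromosome 10 from 64571756 to 64578927 (minus strand). The ratio of the means was 40.4, and the log2 fold change was 4.64 (standard error 0.23, limma adjusted p = 9.5e-07). This value depends on the pseudocount because of the low DMSO level, being 2.70 with a pseudocount of 1 and 5.22 with one of 0.01.

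EGR3, an EGR factor of neurons, muscle spindles and lymphocytes, gave 0.683, 0.530 and 0.554 FPKM in the DMSO samples and 5.05, 7.22 and 5.51 FPKM in the BCT samples. The groups were well apart, and the mean rose 10.1-fold (log2 fold change 3.12, standard error 0.16, limma adjusted p = 1.0e-06). With a pseudocount of 1 the log2 fold change was 2.11. EGR3 lies on chromosome 8 from 22545174 to 22550815 (minus strand). The family member outside the chosen set, EGR4, rose as well, from 0.029 ± 0.0197 to 3.85 ± 1.18 FPKM (SD, n = 3 each), and like EGR2 and EGR3 it passed the filter through its BCT samples. The EGR corepressors gave other values. NAB2, itself a known EGR target, averaged 12.3 ± 0.247 FPKM without BCT and 12.3 ± 0.313 FPKM under BCT, a log2 fold change of 0.0044 (limma adjusted p = 0.94). NAB1 averaged 8.38 ± 0.0880 and 5.02 ± 0.395 FPKM, a log2 fold change of -0.73 that did not reach the fold change threshold.

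NR4A1 (Nur77) was the most abundant of the NR4A receptors in both groups. Its DMSO samples gave 9.08, 9.02 and 9.69 FPKM, and its BCT samples 30.2, 46.8 and 37.1 FPKM. It lies on chromosome 12 from 52416616 to 52453291 (plus strand). Its mean rose 4.11-fold, from 9.26 ± 0.373 to 38.1 ± 8.35 FPKM (SD, n = 3 each). The log2 difference was 2.004 (standard error 0.14, limma adjusted p = 3.2e-06). This was the smallest rise within the EGR and NR4A families.

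NR4A2 (Nurr1), known for the differentiation of dopaminergic neurons, was at 0.699, 0.715 and 0.856 FPKM with DMSO. With BCT it was at 5.30, 7.71 and 6.94 FPKM. It lies on chromosome 2 from 157180944 to 157189287 (minus strand). The mean rose 8.79-fold, a log2 fold change of 2.97 (standard error 0.15, limma adjusted p = 1.1e-06). This value also depends on the pseudocount, being 2.11 with a pseudocount of 1.

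NR4A3 (NOR1), which together with NR4A1 is known to restrain myeloid leukemia, had the largest log2 fold change of the 10 genes at the pseudocount of 0.1 used here. It gave 0.174, 0.224 and 0.151 FPKM in the DMSO samples, against 7.36, 11.2 and 10.3 FPKM in the BCT samples. NR4A3 lies on chromosome 9 from 102584137 to 102629173 (plus strand). The ratio of the means was 52.6 and the log2 fold change 5.09 (standard error 0.19, limma adjusted p = 3.6e-07), which was rank 7 from the top among the tested genes. As for EGR2, the pseudocount set its size, with 3.15 at a pseudocount of 1 and 5.64 at one of 0.01. At a pseudocount of 1, EGR1 had the larger value, 4.08.

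IER2, a small nuclear protein of the growth factor response, was the most abundant member in both groups. Its level was 65.6, 63.1 and 64.7 FPKM in the DMSO samples, against 180, 253 and 193 FPKM in the BCT samples. IER2 lies on chromosome 19 from 13261282 to 13265718 (plus strand). The mean rose 3.23-fold, from 64.5 ± 1.28 to 209 ± 39.2 FPKM (SD, n = 3 each). The log2 difference was 1.68 (standard error 0.11, limma adjusted p = 3.1e-06). The EGR1 and IER2 ranges, far apart with DMSO, overlapped with BCT.

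IER3 (IEX-1), a regulator of cell survival and of ERK signaling, gave 2.38, 2.34 and 2.71 FPKM in the DMSO samples and 3.92, 5.002 and 4.08 FPKM in the BCT samples. The groups did not overlap, and the ratio of the means was 1.75. The log2 fold change of 0.78 (95% CI 0.52 to 1.04, limma adjusted p = 0.00023) passed the FDR but not the fold change threshold, which lies inside its interval. Its row names the alternative haplotype contig chr6_ssto_hap7 from 2043293 to 2044644 (minus strand) rather than the main chromosome 6, where GENCODE places the gene at 30710976 to 30712324. Reads of the region can match more than one copy of it, and how they were shared out was not tested. The level of IER3 is uncertain for this reason.

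IER5, a single-exon gene linked to the heat shock factor HSF1, gave 15.3, 13.96 and 13.7 FPKM in the DMSO samples and 15.8, 16.2 and 15.2 FPKM in the BCT samples. The lowest BCT sample lay under the highest DMSO sample. The log2 fold change was 0.14 (95% CI -0.0036 to 0.27, limma adjusted p = 0.066). It lies on chromosome 1 from 181057638 to 181059979 (plus strand).

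SRF, the factor that binds CArG boxes, gave 24.2, 22.8 and 23.2 FPKM in the DMSO samples and 23.0, 24.4 and 22.5 FPKM in the BCT samples. The samples of the groups were intermixed. SRF lies on chromosome 6 from 43139033 to 43149244 (plus strand). The log2 fold change was -0.0089 (95% CI -0.13 to 0.11, limma adjusted p = 0.88). This holds under the deposited scaling, and with equal FPKM sums SRF was at 0.76 and IER5 at 0.90 on the log2 scale, where the median of all tested genes was 0.72.

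**Figure D2:**
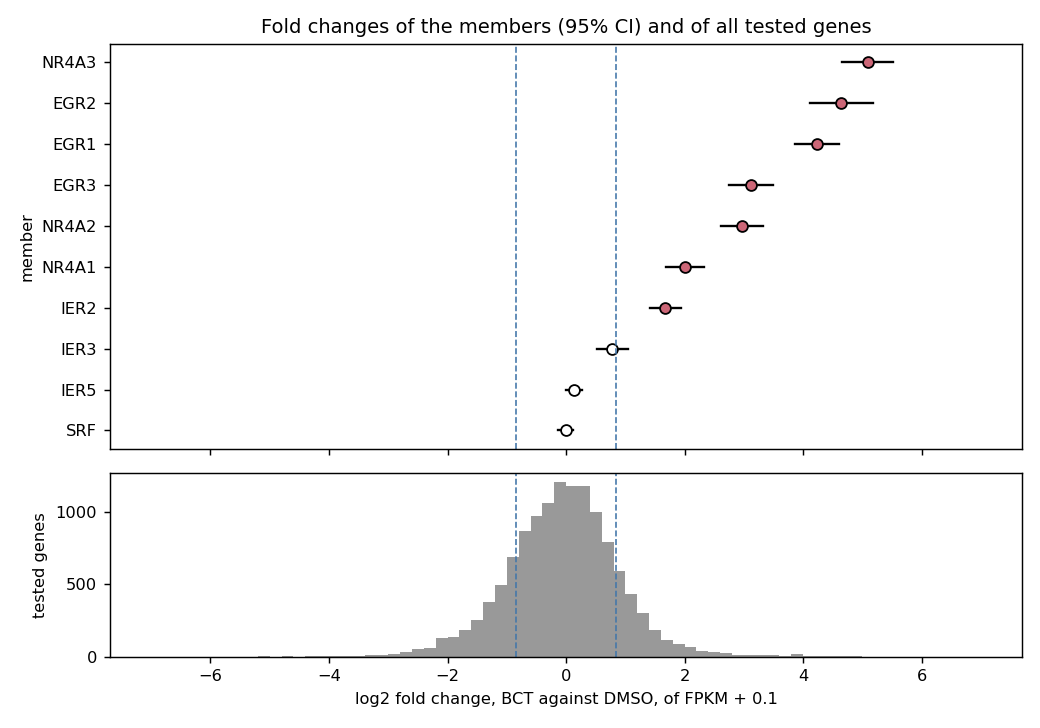
Upper panel, log2 fold change (BCT against DMSO, FPKM + 0.1) of each gene with its 95% CI from limma, filled where the gene was called; lower panel, number of the 12729 tested genes per bin of 0.2. The 7 called genes lie at 1.68 or above and the intervals of IER5 and SRF include 0, while all tested genes have a median of -0.038. Dashed lines mark 0.85 in either direction.

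The order of the levels changed with treatment. With DMSO it ran from IER2 through SRF, IER5, NR4A1, EGR1, IER3, NR4A2 and EGR3 to NR4A3 and EGR2, and only the ranges of the last pair overlapped. With BCT, EGR1 moved from rank 5 to rank 2 and NR4A1 from rank 4 to rank 3, both above SRF and IER5. IER3 moved from rank 6 to rank 10. With BCT, neighboring ranges overlapped between IER2 and EGR1, NR4A3 and EGR2, EGR2 and NR4A2, and NR4A2 and EGR3.

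The summed FPKM of the 3 EGR genes rose 19.2-fold and that of the 3 NR4A genes 5.32-fold, but the make-up of the 2 families moved differently. EGR1 made up 89.6% to 92.0% of the EGR sum with DMSO and 92.1% to 92.5% with BCT. Within the remainder, EGR2 went from 1.96% ± 0.364 to 4.08% ± 0.218 and EGR3 from 6.86% ± 1.06 to 3.64% ± 0.329 (SD, n = 3 each). In the NR4A family, NR4A1 went from 90.8% ± 0.374 to 70.0% ± 1.60, NR4A2 from 7.40% ± 0.524 to 12.3% ± 0.520 and NR4A3 from 1.80% ± 0.422 to 17.7% ± 1.13 (SD, n = 3 each). NR4A3 was thus the rarest NR4A transcript with DMSO and the second most abundant with BCT. Among the IER genes, IER2 went from 79.3% ± 0.505 to 91.1% ± 1.10 of the sum, while IER5 went from 17.6% ± 0.736 to 6.998% ± 1.02 (SD, n = 3 each). For each of the 9 shares the groups did not overlap, and the exact two-sided permutation p was 0.1, the smallest that 3 samples against 3 can give. Lack of overlap was common, since the FPKM of 85.3% of all tested genes did not overlap in either direction. The shares of a family add up to a fixed total, so the 9 are not separate results. For EGR1 the gap was narrow, from 91.995% in DMSO replicate 3 to 92.056% in BCT replicate 1. These shares do not depend on a scaling by 1 factor per sample.

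**Figure D3:**
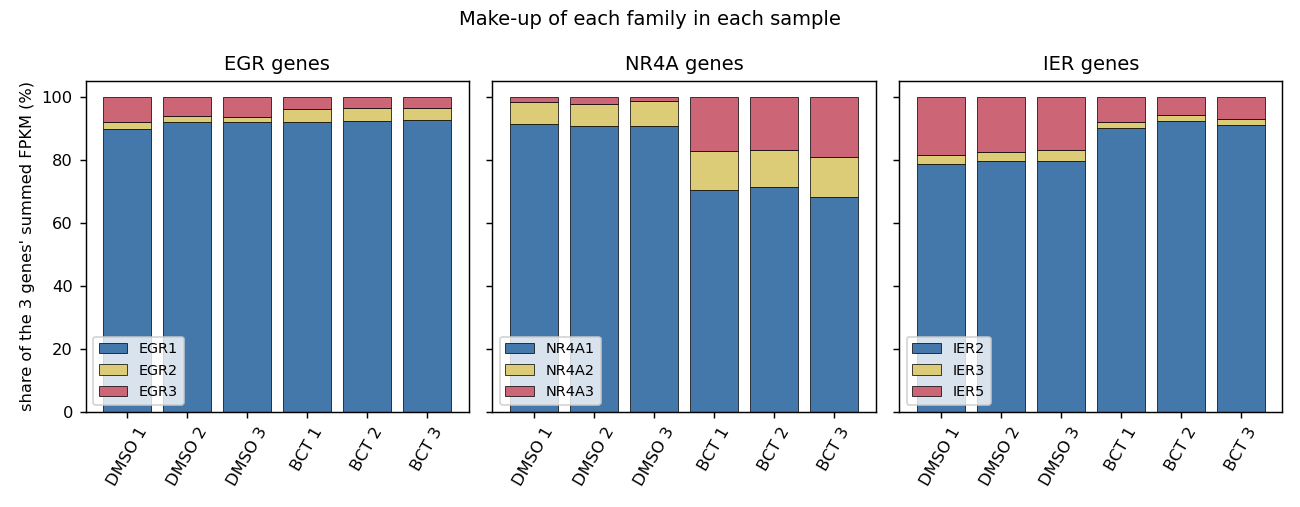
Share (%) of each gene in the summed FPKM of its family, one bar per sample, for the EGR, NR4A and IER genes. EGR1 holds about the same share in all samples (89.6% to 92.5%), while NR4A1 gives way to NR4A2 and NR4A3 in the 3 BCT samples.

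In 9 of the 10 genes the coefficient of variation was larger among the BCT samples than among the DMSO samples, the exception being IER5. In NR4A3 the values were close, at 20.4% with DMSO and 20.8% with BCT. The share of all tested genes with the larger value in BCT was not computed, so this count is not shown to be particular to these genes. In the 7 called genes, the coefficient of variation within BCT was 18.6% to 31.7%, where the median over all 1764 genes called higher was 9.51%. With DMSO it was 1.99% for IER2 and 2.78% for EGR1, and up to 20.4% for NR4A3, whose level was low. Replicate 1 was the lowest BCT sample and replicate 2 the highest in the 7 called genes and in IER3. Replicate 1 was the lowest BCT sample in 85.9% of the genes called higher, and the order of replicate 1, 3 and 2 held in 50.5% of them and in 20.2% of all tested genes. EGR1 in replicate 2 was 1.69 times its value in replicate 1, and EGR2 was 1.85 times. IER5 and SRF differed by at most 1.08 times between BCT samples and did not follow that order. Without BCT replicate 1 the log2 fold changes of the 7 genes stayed called, as they did without each other sample.

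**Figure D4:**
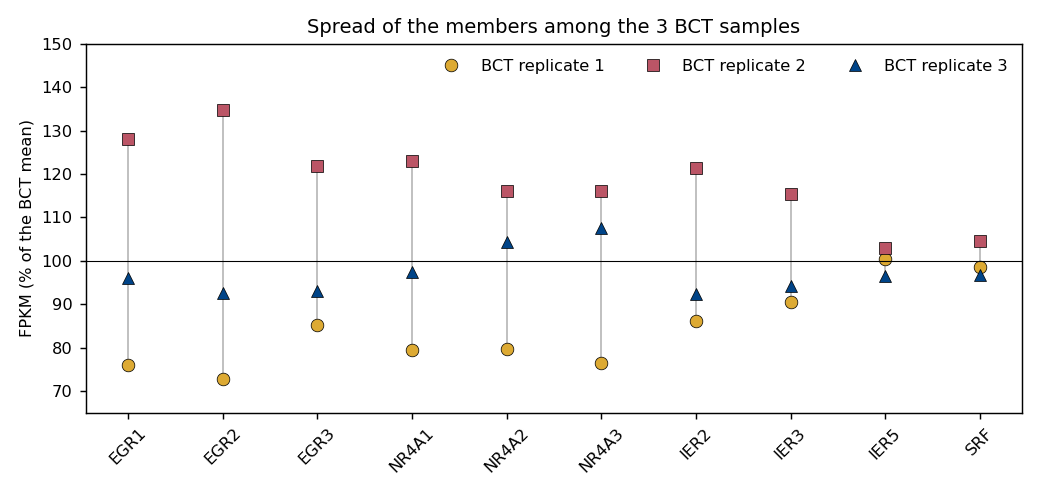
FPKM of each gene in the 3 BCT samples as a percentage of its BCT mean (line at 100%), with a symbol per replicate. Replicate 1 is lowest (72.7% to 90.5%) and replicate 2 highest (115% to 135%) in 8 genes, while IER5 and SRF stay between 96.6% and 105%.

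Lists of related genes were written by role, leaving out the 10 members, but with earlier results of these data known. Their counts therefore describe the lists and are not independent of these data. Together they hold 93 genes, of which 81 were tested, with 34 called higher and 9 lower. Over all tested genes 13.9% were called higher and 17.8% lower. The median log2 fold change was 0.38 in the lists and -0.038 over all tested genes. Among the 34 is EGR4, which passed the filter only through its BCT samples. The 26 other immediate-early genes were all tested. Of these 23 were called higher and 1 lower, with a median of 2.19. Of the 23, 5 averaged under 1 FPKM with DMSO and passed the filter only through their BCT samples, so that they had to rise to be tested: ARC, GEM, FOSB, FOSL1 and SGK1, the last 3 named after their values were seen. FOS, the AP-1 partner of JUN, rose from 3.43 ± 0.242 to 73.0 ± 19.8 FPKM, and JUN rose from 20.1 ± 0.585 to 229 ± 33.4 FPKM (SD, n = 3 each). GEM, a small GTPase, rose by 4.34 and ARC, a synaptic plasticity protein, by 3.57 on the log2 scale, both among those 5. The gene called lower was MYC (-2.18), and the pair that was not called was TRIB1 (0.38) and KLF2 (0.78); these genes were named after their values were seen.

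Of the 14 tested genes of the RAF-MEK-ERK-RSK cascade, 1 was called higher and 2 lower, with a median of 0.20, where 13.9% and 17.8% of all tested genes were called. The balance turned with the scaling, with 8 higher and 0 lower after rescaling to equal FPKM sums, and 3 higher and 1 lower when MIR6087 was left out of the sums. On the deposited scale, single members gave the following values. The kinase BRAF rose from 7.05 ± 0.387 to 23.5 ± 3.99 FPKM, MAPK3 (ERK1) fell from 36.9 ± 2.79 to 19.5 ± 1.85 FPKM, and RPS6KA5 (MSK1) fell from 3.47 ± 0.172 to 1.14 ± 0.0808 FPKM (SD, n = 3 each). RPS6KA1 had a log2 fold change of -0.85 and was not called. Of the 10 stress MAP kinase genes, 1 was called higher and 3 lower, which became 3 higher and 1 lower with equal FPKM sums. MAP2K3, an activator of p38, rose from 35.5 ± 0.743 to 105 ± 11.3 FPKM, whereas MAP2K6, the other main p38 activator, fell from 5.76 ± 0.456 to 1.10 ± 0.180 FPKM (SD, n = 3 each). MAPK12 and MAPK11, which are p38 kinases, fell by 1.10 and by 1.05 on the log2 scale.

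Of 4 tested cofactors of SRF, 1 was called higher and 0 lower, where 13.9% and 17.8% of all tested genes were called. After rescaling to equal FPKM sums 3 were higher, and 2 when MIR6087 was left out of the sums. A call of 1 lower was made at a pseudocount of 0.01, without DMSO replicate 2 and without BCT replicate 1. MKL1 (MRTF-A), the actin-sensing coactivator, rose from 4.23 ± 0.151 to 9.43 ± 0.591 FPKM (SD, n = 3 each). ELK1 was at 27.8 and 15.4 FPKM, a log2 fold change of -0.849 that lay just inside the threshold, and MKL2 and ELK4 were at 0.61 and 0.38 on the log2 scale. Of 13 tested cytoskeletal targets of SRF, 4 were called higher and 2 lower, with a median of 0.041, beside the same shares of all tested genes. With equal FPKM sums 6 were higher and 1 lower, and without MIR6087 in the sums 5 were higher and 1 lower. ZYX, a focal adhesion protein, rose by 2.02, the smooth muscle actin ACTA2 by 1.83 and the actin-bundling TAGLN by 1.67, while the calponin CNN2 fell by 1.73 on the log2 scale. The other calls in this list, named after their values were seen, were the nonmuscle myosin MYH9 (0.89) and the cytoplasmic actin ACTB (-0.97). Without the filter on low values 7 genes of this list were called higher.

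Of 7 tested genes known as EGR1 targets, 4 were called higher and 1 lower, where 13.9% and 17.8% of all tested genes were called. With limma's treat against the threshold 2 were higher and 0 lower, and with equal FPKM sums 0 were lower. Besides ARC, which passed the filter through its BCT samples, VEGFA rose from 25.6 ± 1.86 to 72.6 ± 5.19 FPKM and THBS1 from 5.27 ± 0.754 to 10.6 ± 1.91 FPKM, while the coagulation factor receptor F3 fell from 8.38 ± 0.325 to 3.37 ± 1.02 FPKM (SD, n = 3 each). WT1, a zinc-finger factor related to the EGR family, was at -0.48 on the log2 scale and not called. The NR4A partners RXRA and RXRB were at -0.54 and 0.25, and the IER relatives IER5L and IER3IP1 at 0.78 and -0.42 on the log2 scale, and none of the 4 was called.

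**Figure D5:**
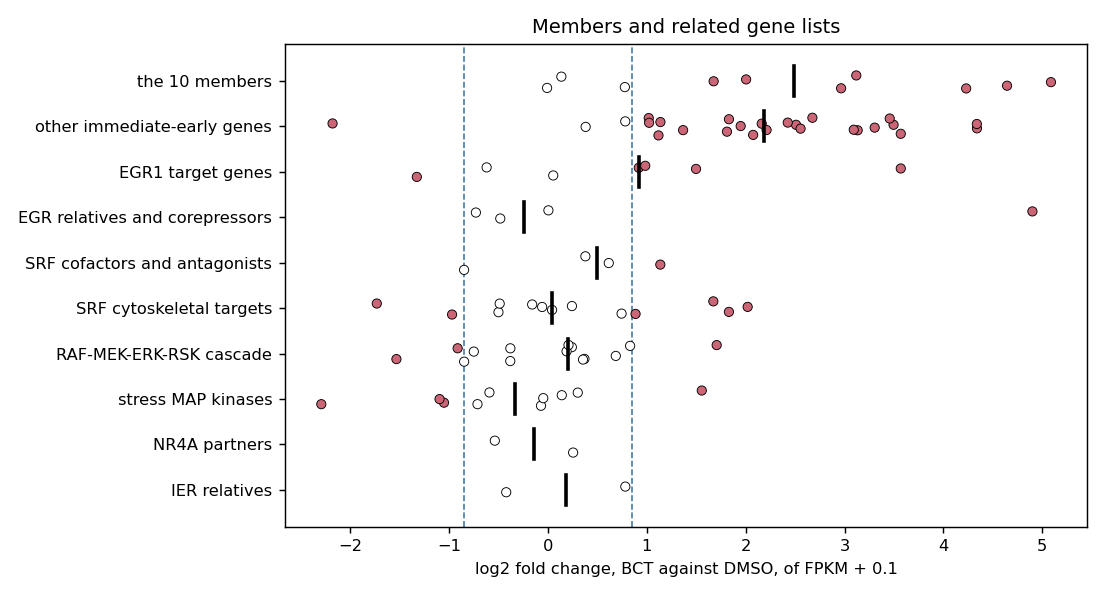
Log2 fold change (BCT against DMSO, FPKM + 0.1) of each tested gene, by list, filled where called, with a bar at the median of the list and dashed lines at 0.85 in either direction. The other immediate-early genes lie mostly to the right (median 2.19), while the kinase and SRF target lists spread on both sides of 0 on the deposited scale.

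The genes nearest to each family's most abundant member were found from the profile over the 6 samples, as the Euclidean distance between log2 values centered on the DMSO mean. FOS (distance 0.225), GEM (0.365) and the protease gene MMP10 (0.411) were nearest to EGR1. With DMSO, GEM averaged 0.805 FPKM and MMP10 0.127 FPKM, and both passed the filter only through their BCT samples. The DMSO level of MMP10 lay near the pseudocount of 0.1, so its distance depends on that setting. Nearest to NR4A1 were CLTCL1 (0.155), ZNF274 (0.182) and PCGF1 (0.185), and nearest to IER2 were TMEM265 (0.172), KIF20B (0.194) and P2RX4 (0.198). MRPL48 (0.0476), CNPPD1 (0.0559) and ATP6V0B (0.0587) were nearest to SRF. The profiles of 6 samples in 2 groups are set mainly by the fold change.

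The transcripts of these genes shared a simple structure in part. In GENCODE, 6 of the 10 genes have at most 3 exons in their canonical transcript, as do 12.1% of the 11021 tested genes with such a transcript, where the median is 9 exons. EGR1, EGR2, EGR3, IER2 and IER3 have 2 exons and IER5 has 1, and their log2 fold changes ran from 0.14 in IER5 to 4.64 in EGR2. NR4A1 and SRF have 7 exons and NR4A2 and NR4A3 have 8. The AU-rich pentamer ATTTA, a mark of unstable mRNAs, occurred in the 3' UTR of 9 of the 10 genes and of 72.8% of all. Per kilobase of 3' UTR it was above the median of 1.73 in 5 of the 10, with 8.14 in IER3, 5.37 in NR4A1, 3.32 in IER5, 3.31 in NR4A3 and 3.06 in NR4A2. It was 0.818 in EGR1 and 0 in IER2, which both rose.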

How the data were processed

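RNA-seq libraries of 22RV1 cells (DMSO or 10 nM BCT, 24 h, 3 samples each) were made with the TruSeq RNA v2 kit. The authors trimmed reads with Trimmomatic (0.38 in the processing notes), aligned them to hg19 with HISAT2 and ran StringTie, and the deposited values are FPKM per gene. The processing notes also name HTSeq, and the gene annotation is not given in the sources used here. Starts were shifted by 1 base.

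From the deposited FPKM values, log2(FPKM + 0.1) was fitted in R 4.3.3 by limma 3.58.1, whose eBayes step used a mean-variance trend, for the 12729 genes that averaged 1 FPKM or more. Calls needed a log2 difference beyond 0.85 in size and an FDR under 0.05, as in the results of the study, whose methods give 0.01. The steps were tested on simulated data. Genes, lists and named genes (the 4 largest changes per list) were chosen with earlier results of these data known. Promoters came from RefSeq (GRCh38.p14) and transcripts from GENCODE v44 lifted to GRCh37, matched by symbol for 86.6% of tested genes. Depth is known only as a ratio. Some items are not reported here. Alternatives covered the pseudocount, filter, scaling, FDR, variance model, replicate block and each sample left out.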

Additional observations from a re-analysis of the deposited data

How the results depend on the processing

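Across 19 alternatives, 182 of 185 results of the 10 genes kept their call or lack of one, with no called gene changing sign, and 3 were newly called. The settings of filter, FDR, variance model, treat and replicate block leave the fold change itself as it was. Only the adjusted p could change the call there, so the count is not a measure of how stable the fold changes are. Rescaling to equal FPKM sums, which raised the median of all genes to 0.72, put IER3 at 1.52, IER5 at 0.90 and SRF at 0.76; without MIR6087 in the sum the median was 0.34 and IER3 was at 1.15. Relative to these medians IER5 and SRF stayed near 0. The 7 members called higher became 3 at a mean of at least 5 FPKM, since fewer genes were tested, and 9 and 8 with the 2 sum scalings. The 4027 genes called in all became 6282 with equal sums (89.4% of them higher, against 43.8% as deposited, and 73.6% without MIR6087) and 2425 with limma's treat against the threshold. The 9 list genes called lower became 3 and 5 with the sum scalings and 5 with treat. Of 342 counts for single lists, 30 moved, either by more than 1.5 times or between 0 and another value. Each sample left out in turn gave 3822 to 4428 genes in all, 7 members higher, and 33 to 37 list genes higher and 9 to 11 lower. With the replicate block 4033 genes were called, 7 members higher and 0 lower, 34 list genes higher and 9 lower. Deviations of same-numbered samples correlated at 0.116, 0.0328 and 0.0342 across genes, so the numbers were not taken to pair the samples. Low DMSO levels limit the size of the EGR2, EGR3, NR4A2 and NR4A3 changes, which depends on the pseudocount.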
